A study of Mus musculus with 18 samples.

Results

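The step from 3OFF to 7OFF was measured in the livers of mice labelled as taken 7 days after a toxic injury (7OFF, n = 3 mice) and 3 days after it (3OFF, n = 3 mice). These 6 libraries, chosen by their group labels, are part of a series of 18 poly-A RNA-seq libraries in 6 groups of 3. Both groups had been injured by intraperitoneal carbon tetrachloride at 0.5 µL per g of body weight, a solvent that hepatocytes around the central vein convert to a toxic radical. The study is built on MycER, the transcription factor MYC joined to the hormone-binding part of the estrogen receptor, which daily intraperitoneal tamoxifen at 1 mg switches on. The labels describe 7OFF and 3OFF as without MycER activation and do not state whether it had been active in these mice earlier. By the labels alone, days since the injury and days since any earlier MycER activity ended cannot be told apart. The pair of groups set beside them was taken 12 days after injury, with MycER activated (12ON, n = 3) or without (12, n = 3). The genotype, strain, age, sex, hour of sampling and the promoter behind MycER are not given in the sources used here.

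A liver that has lost hepatocytes recruits monocytes that become macrophages and clear dead cells, while surviving hepatocytes re-enter the cell cycle and for a time lower the genes of their metabolic work. MYC raises genes for ribosomes, nucleotides and division. H19, a long non-coding RNA, and Igf2, which encodes insulin-like growth factor 2, are imprinted neighbours that are abundant in the fetal liver and nearly silent in the adult.

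The 7OFF libraries held 35.1, 49.0 and 44.6 M gene counts, and the 3OFF libraries 50.3, 56.0 and 39.1 M. Alb, which encodes albumin and marks hepatocytes, took 3.85% to 6.37% of the counts in 7OFF and 3.80% to 6.18% in 3OFF, so the tissue label fits its defining marker. Mitochondrial genes took 5.54% to 6.19% of the counts in 7OFF and 5.36% to 7.18% in 3OFF. Xist, the RNA that coats the silenced X of female cells, lay at 276 CPM in 7OFF replicate 3 and 300.4 CPM in 3OFF replicate 3, and at no more than 1.94 CPM in the other 4 libraries. Myc itself had 3.77, 4.26 and 6.24 CPM in the 7OFF livers and 7.48, 5.88 and 10.9 CPM in the 3OFF livers. It did not pass the test (log2 fold change -0.76 ± 0.26, adjusted p = 0.0809), except without 7OFF replicate 3, where its log2 fold change was -1.0. Esr1, the estrogen receptor gene, had 14.7, 23.4 and 25.1 CPM in the 7OFF livers and 13.4, 14.4 and 23.7 CPM in the 3OFF livers (log2 fold change 0.30 ± 0.32, adjusted p = 0.618). Whether reads of the MycER transgene fall on either gene was not tested.

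Of 17789 genes with enough counts to test, 1434 differed between 7OFF and 3OFF, which is 8.06%. Of these, 538 (3.02%) were higher in 7OFF and 896 (5.04%) were lower, at an adjusted p under 0.05 (quasi-likelihood test of edgeR, p-values adjusted by Benjamini and Hochberg here and below). Most of the changes were modest: 70.9% of the called genes changed by less than 2-fold, and the median log2 fold change was 0.53 among the genes called higher and -0.81 among those called lower. At least 2-fold changes were found for 118 genes (0.663%) in the higher direction and 299 (1.68%) in the lower. The median over all tested genes was 0.01. The 3 libraries of 1 group lay entirely above the 3 of the other for 2186 genes (12.3%) higher in 7OFF and 2413 (13.6%) lower, and for 1384 of the 1434 called genes. Errors of log2 fold changes are standard errors, levels are normalised CPM, counts scaled to a fixed library size, and n is 3 mice per group throughout.

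The counts depended on single libraries. With 1 library left out in turn they lay between 184 and 603 genes higher and between 397 and 911 lower, with 193 and 397 without 7OFF replicate 2, 184 and 482 without 3OFF replicate 1, 314 and 597 without 3OFF replicate 2, and 279 and 699 without 3OFF replicate 3. A set of 101 higher and 306 lower genes passed in each of these 6 fits with a fold within 1.5 times of the full one. Genes named below come from inside and outside this set. Scaling by total counts alone gave 192 higher and 1106 lower, a more uneven split than 538 and 896.

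Most genes that moved between 3OFF and 7OFF also differed, in the opposite direction, between 12ON and 12, a comparison that shares no library with this one. In 12ON against 12, 4269 genes (24%) were higher and 4029 (22.6%) were lower. Of the 896 genes lower in 7OFF, 483 (53.9%) were among those higher in 12ON and 65 (7.25%) among those lower in 12ON. Of the 538 genes higher in 7OFF, 353 (65.6%) were among those lower in 12ON and 15 (2.79%) among those higher. Seen from the longer lists, the opposite-way genes were 11.3% of the genes higher in 12ON and 8.76% of those lower, and the same-way genes 0.351% and 1.61%. The plot of both fold changes shows this as a band from upper left to lower right.

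**Figure D1:**
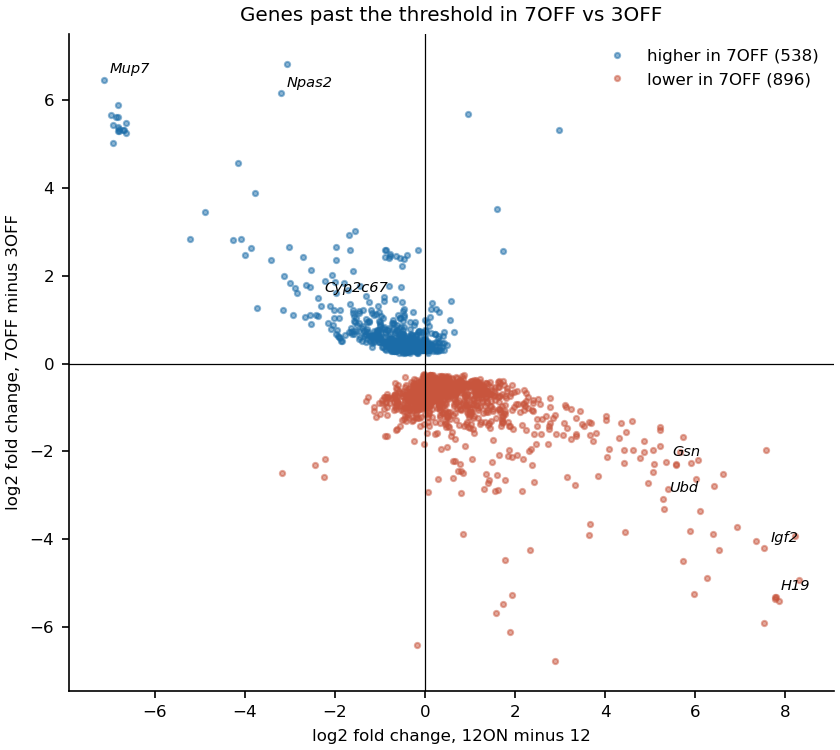
Each point is a gene past the threshold in 7OFF against 3OFF, with its log2 fold change of 12ON minus 12 on the x axis and of 7OFF minus 3OFF on the y axis; blue marks the 538 genes higher in 7OFF and red the 896 lower. H19 and Igf2 lie at the lower right, and Mup7 and Npas2 at the upper left.

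The fetal pair H19 and Igf2 fell steeply. H19 (GRCm38, chr7:142575529-142578143) had 125, 101 and 665 CPM in the 7OFF livers and 17294, 11001 and 6921 CPM in the 3OFF livers. All 7OFF values lay below all 3OFF values, and 7OFF replicate 3 was the highest of its group. The fall was 39.5-fold (log2 fold change -5.30 ± 0.71, adjusted p = 0.000985), and its log2 size was -6.70 without 7OFF replicate 3. Igf2 (chr7:142650766-142666816) had 100.5, 105 and 496 CPM in the 7OFF livers and 5302, 6318 and 1246 CPM in the 3OFF livers. The same 7OFF replicate 3 was highest here and 3OFF replicate 3 lowest of its group. Igf2 fell 18.4-fold (log2 fold change -4.20 ± 0.68, adjusted p = 0.00265), with -5.39 without 7OFF replicate 3. H19 averaged 19098 ± 2110.3 and 22031 ± 6171 CPM in the groups labelled 1 and 2 days after injury (1OFF and 2OFF, SD, n = 3 each), and Igf2 6076 ± 966 and 6998 ± 1233 CPM. For comparison, H19 averaged 20260 ± 2814 CPM (SD, n = 3) in 12ON livers and 93.1 ± 54.1 CPM in livers of group 12, and Igf2 4781 ± 984 and 25.7 ± 12.7 CPM. Both genes thus lay near the 12ON level in 1OFF and 2OFF. Whether MycER had been active earlier in the OFF groups was not tested.

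The small RNA genes Mir675, Gm27483 and Gm27786 lie inside H19 exons, and the antisense gene Igf2os overlaps Igf2. Reads were counted without strand for every gene they overlap, so the falls of these 4 genes, log2 -5.41 ± 0.72, -5.36 ± 0.68, -5.32 ± 0.69 and -4.93 ± 0.59, cannot be told apart from those of H19 and Igf2. Of 15 tested genes of the fetal liver and progenitor list, 4 fell and none rose, against 5.04% of all genes lower, 14 of 15 had a negative sign and the median was -0.56. The other 2 that fell were Igf2bp3, an RNA-binding protein of fetal tissue that binds Igf2 mRNA (log2 fold change -1.97 ± 0.47, adjusted p = 0.0193), and Hmga1, a chromatin protein of growing cells (log2 fold change -1.33 ± 0.28, adjusted p = 0.00974). Igf2bp3 no longer passed without 7OFF replicate 2 (-1.55) or without 3OFF replicate 1 (-1.39), and Hmga1 without 7OFF replicate 2 (-1.12), which left 2 members of the list. Afp, alpha-fetoprotein, had 5.38, 4.96 and 5.56 CPM in the 7OFF livers and 11.2, 8.16 and 6.86 CPM in the 3OFF livers and did not pass (log2 fold change -0.72 ± 0.71, adjusted p = 0.575). Dlk1, a fetal membrane protein, had 0.0349, 0.203 and 0.0235 CPM in the 7OFF livers and 1.56, 1.66 and 0.217 CPM in the 3OFF livers and did not pass either (log2 fold change -3.61 ± 1.26, adjusted p = 0.0890).

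**Figure D2:**
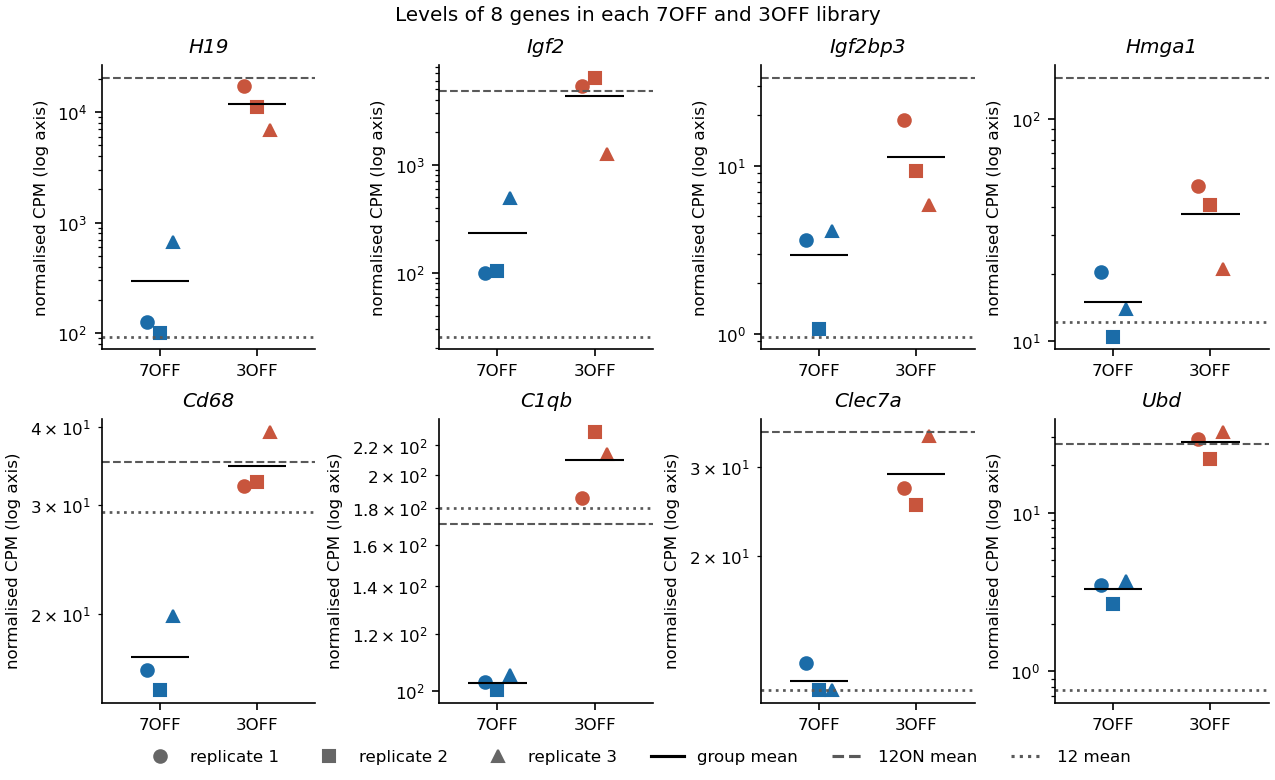
Normalised CPM (log axis) of 8 genes in each 7OFF library (blue, left) and 3OFF library (red, right), with marker shapes for replicates, black bars for group means, and dashed and dotted lines for the means of 12ON and 12. The 7OFF points lie below the 3OFF points in every panel, and the spread is narrower for Clec7a, C1qb and Ubd than for H19 and Igf2.

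Several genes outside the list also fell, by less than H19 and Igf2. Gpx6, a glutathione peroxidase, had 0.489, 0.271 and 0.657 CPM in the 7OFF livers and 9.65, 11.3 and 2.30 CPM in the 3OFF livers and fell 16.6-fold (log2 fold change -4.05 ± 0.58, adjusted p = 0.00127). Ubd, a ubiquitin-like modifier raised by inflammatory cytokines, had 3.49, 2.64 and 3.73 CPM in the 7OFF livers and 29.2, 21.7 and 32.1 CPM in the 3OFF livers (log2 fold change -3.08 ± 0.30, adjusted p = 8.23e-05). Its groups were 8.44-fold apart with no overlap, and group 12 averaged 0.759 CPM against 27.1 CPM in 12ON. Gsn, the actin-severing protein gelsolin, had 62.2, 154 and 228 CPM in the 7OFF livers and 798, 549 and 763 CPM in the 3OFF livers (log2 fold change -2.25 ± 0.38, adjusted p = 0.00352). Smpdl3b, a phosphodiesterase anchored to the membrane, had 11.6, 15.7 and 12.6 CPM in the 7OFF livers and 66.0, 78.8 and 39.5 CPM in the 3OFF livers (log2 fold change -2.21 ± 0.20, adjusted p = 5.98e-05). Mthfd1l, the mitochondrial enzyme that releases formate for purine synthesis, had 3.07, 2.95 and 2.72 CPM in the 7OFF livers and 10.5, 12.8 and 18.4 CPM in the 3OFF livers (log2 fold change -2.25 ± 0.25, adjusted p = 0.000242). Among genes with at least 4 CPM, no overlap and a call and fold that held without each library, Shisa8, Calml4, Rasal1 and Prr15l were also in the 12 steepest falls, with log2 fold changes of -2.79 ± 0.51, -2.58 ± 0.34, -2.46 ± 0.41 and -2.14 ± 0.38. Mybph (-2.72 ± 0.48) and Adora1 (-2.53 ± 0.43) overlap each other in their exons, and their reads cannot be told apart where they do.

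Among the 48 lists, the markers of monocytes and macrophages had the largest share of members that fell. Of 29 tested markers of monocytes and macrophages, 13 fell and none rose, against 5.04% of all genes lower, 28 of 29 had a negative sign and the median log2 fold change was -0.76. The summed level of the list lay at 1128 to 1355 CPM in 7OFF and 2052 to 2298 CPM in 3OFF. Between 9 and 14 members were called lower when 1 library was left out. In whole tissue, fewer cells of a type and less RNA per cell cannot be told apart.

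The steadiest members cover the lysosome, surface receptors and complement. Cd68, a glycoprotein of macrophage lysosomes, had 16.2, 15.1 and 19.8 CPM in the 7OFF livers and 32.1, 32.7 and 39.3 CPM in the 3OFF livers (log2 fold change -1.02 ± 0.14, adjusted p = 0.000985). Lgals3, the lectin galectin-3 of recruited macrophages, had 10.7, 11.1 and 14.2 CPM in the 7OFF livers and 32.8, 23.6 and 29.4 CPM in the 3OFF livers (log2 fold change -1.25 ± 0.17, adjusted p = 0.00111). C1qb, a chain of the complement component C1q that macrophages secrete, had 103, 100.2 and 105 CPM in the 7OFF livers and 186, 229.7 and 214 CPM in the 3OFF livers (log2 fold change -1.03 ± 0.17, adjusted p = 0.00295). In all of these the 7OFF libraries lay in a narrow range well below every 3OFF library. Cd68, Lgals3 and C1qb averaged 29.2, 22.1 and 180 CPM in group 12 and 35.2, 32.5 and 171 CPM in 12ON. Each was also lower in 7OFF than in group 12, at log2 -0.77, -0.88 and -0.81 (edgeR, adjusted p = 0.00767, 0.0106 and 0.0144). The fall of these genes thus went below the level of group 12. The other chains fell as well, with log2 fold changes of -0.92 ± 0.18 for C1qc and -0.84 ± 0.19 for C1qa, although C1qa no longer passed without 7OFF replicate 2 (-0.85) or without 3OFF replicate 2 (-0.76). Tyrobp and Fcer1g, adaptors that carry signals of activating receptors, fell with log2 fold changes of -0.83 ± 0.14 and -0.74 ± 0.15. The IgG receptor Fcgr3 (-0.71 ± 0.15) and Cd63, a tetraspanin of late endosomes (-1.25 ± 0.25), fell too. Csf1r, the receptor for the macrophage growth factor CSF1, had 132, 146 and 123 CPM in the 7OFF livers and 197, 246 and 220.1 CPM in the 3OFF livers and just missed the threshold (log2 fold change -0.73 ± 0.22, adjusted p = 0.0504).

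The bases before the start sites of Cd68, Lgals3 and C1qb, the 3 list members with the smallest adjusted p and a single promoter in RefSeq's table, are shown for the letters GAGGAA, the core that the myeloid factor PU.1 binds. Each run holds the 250 bases before the start in GRCm38.p6, read 5′ to 3′ on the gene's strand. Cd68 is at chr11:69666171-69666420 (minus strand), Lgals3 at chr14:47373610-47373859 (plus strand) and C1qb at chr4:136886201-136886450 (minus strand). Capitals mark GAGGAA or its reverse complement.
Cd68: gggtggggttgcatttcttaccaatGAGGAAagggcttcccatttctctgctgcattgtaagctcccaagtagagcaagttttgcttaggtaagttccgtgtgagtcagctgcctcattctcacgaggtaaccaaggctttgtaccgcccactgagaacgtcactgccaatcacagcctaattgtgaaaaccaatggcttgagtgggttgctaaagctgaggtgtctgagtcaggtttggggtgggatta
Lgals3: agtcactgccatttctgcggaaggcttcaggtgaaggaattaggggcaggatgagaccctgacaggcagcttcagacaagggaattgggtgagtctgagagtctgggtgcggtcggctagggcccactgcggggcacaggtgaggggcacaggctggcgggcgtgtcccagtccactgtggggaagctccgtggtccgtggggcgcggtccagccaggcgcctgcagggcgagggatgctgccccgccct
C1qb: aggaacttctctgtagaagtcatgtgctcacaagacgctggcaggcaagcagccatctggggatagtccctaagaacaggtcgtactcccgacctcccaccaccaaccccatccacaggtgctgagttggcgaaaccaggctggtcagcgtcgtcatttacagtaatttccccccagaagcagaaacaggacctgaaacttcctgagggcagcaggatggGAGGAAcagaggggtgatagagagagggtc
The letters occur once in the Cd68 and C1qb windows and not in that of Lgals3. Of the 13 called macrophage markers, 10 had a promoter in the table. The letters were held by 7 of these (70.0%), on either strand in the 250 bases before any of a gene's start sites. A gene with several start sites thus had several windows searched, here and in the shares that follow. They were found for 26.2% of the 12476 tested genes with a promoter, for 33.1% of the 649 called lower and for 18.6% of the 419 called higher. The macrophage markers that were not called were not counted apart, so whether the letters go with the fall was not tested. A match is a run of letters and no measure of binding.

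Markers of Kupffer cells, the resident macrophages of the liver, fell for 5 of 14, against 5.04% of all genes, and none rose, with a median of -0.63. A positive sign was found for 3 members, of which 2 were higher at an unadjusted p under 0.05 (edgeR). The summed level was 1055 to 1322 CPM in 7OFF and 1437 to 2081 CPM in 3OFF. Cd5l, a secreted protein of tissue macrophages that is on both lists, had 220.4, 222 and 232 CPM in the 7OFF livers and 419.5, 558 and 574 CPM in the 3OFF livers (log2 fold change -1.20 ± 0.24, adjusted p = 0.00784). Marco, a scavenger receptor, had 11, 19.9 and 35.4 CPM in the 7OFF livers and 110.4, 116 and 149 CPM in the 3OFF livers (log2 fold change -2.50 ± 0.73, adjusted p = 0.0463). Its groups did not overlap, yet it passed only with all libraries or without 7OFF replicate 3, and without 7OFF replicate 1 its log2 fold change was -2.18. The complement receptor Vsig4 (-0.86 ± 0.24) also lost its call without each of 4 libraries, with -0.64 without 3OFF replicate 3. The list's count of lower genes was 2 without 7OFF replicate 1, 7OFF replicate 2 or 3OFF replicate 2, and 1 without 3OFF replicate 3. A rise was called for 1 member without 7OFF replicate 1, and for 1 without 7OFF replicate 3. The defining markers Clec4f (206, 219 and 204 CPM in the 7OFF livers and 204, 310.1 and 332 CPM in the 3OFF livers), Timd4 and Adgre1 did not pass, at log2 -0.43 ± 0.20, -0.78 ± 0.36 and -0.63 ± 0.22.

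The 10 genes with the smallest p were all lower in 7OFF, namely Ubd, Smpdl3b, Mthfd1l, Clec7a, Ly9, Vcam1, Ifi30, Ear2, Sh3pxd2b and Evl. Clec7a, the receptor dectin-1 for fungal glucans, had 12.3, 10.8 and 10.8 CPM in the 7OFF livers and 27.3, 25.2 and 34.5 CPM in the 3OFF livers (log2 fold change -1.36 ± 0.12, adjusted p = 5.98e-05). Ly9, a receptor of the SLAM family on leukocytes, had 4.30, 5.70 and 4.64 CPM in the 7OFF livers and 10.5, 10.3 and 10.8 CPM in the 3OFF livers (log2 fold change -1.10 ± 0.10, adjusted p = 5.98e-05). Vcam1, an adhesion protein on inflamed endothelium and on some macrophages, had 40.1, 35.8 and 47.3 CPM in the 7OFF livers and 141, 103 and 101 CPM in the 3OFF livers (log2 fold change -1.48 ± 0.16, adjusted p = 0.000198). Every 7OFF value of these genes lay below every 3OFF value. Ifi30, which reduces disulfides of proteins taken up for presentation, fell with a log2 fold change of -1.34 ± 0.15. So did Ear2, a ribonuclease of eosinophils and macrophages (-1.33 ± 0.13), the invadopodium scaffold Sh3pxd2b (-1.41 ± 0.14) and the actin regulator Evl, whose exons overlap Degs2 (-1.16 ± 0.13). Cd74, the invariant chain of MHC class II, had 128, 167 and 149.8 CPM in the 7OFF livers and 295, 306 and 249.5 CPM in the 3OFF livers (log2 fold change -0.94 ± 0.16, adjusted p = 0.00353). It was 1 of 3 genes lower (8.33%, against 5.04% of all genes), with none higher, of 36 on the interferon and antigen list, whose median was 0.04. Among 28 chemokine and cytokine genes 4 fell (14.3%, against 5.04% of all genes) and none rose. They included Ccl6 (-1.90 ± 0.25), a chemokine of myeloid cells, and Cxcl16 (-0.83 ± 0.15), which attracts lymphocytes and overlaps Zmynd15. That count was 2 without 7OFF replicate 2 or without 3OFF replicate 1.

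**Figure D3:**
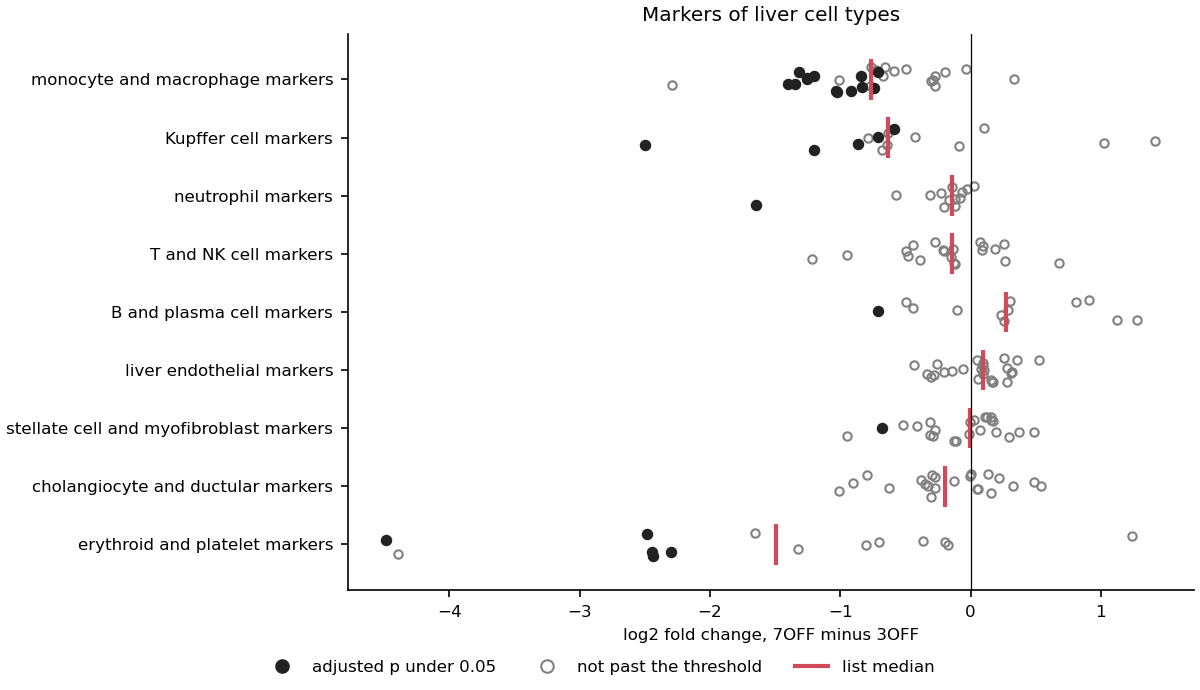
Log2 fold changes of 7OFF minus 3OFF for each tested marker of 9 cell types, with filled points past an adjusted p of 0.05, open points not past it and red bars for list medians. The monocyte and macrophage markers lie left of 0 with a median of -0.76, whereas the endothelial markers gather around 0 with a median of 0.09.

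The other lists of non-parenchymal cell types held few calls. Of 25 endothelial markers edgeR called 0, 4 had an unadjusted p under 0.05 (3 higher and 1 lower) and DESeq2 called 0. Kdr, the VEGF receptor of sinusoidal endothelium, had 48.7, 62.9 and 64.2 CPM in the 7OFF livers and 45.4, 51.3 and 60.3 CPM in the 3OFF livers (log2 fold change 0.16 ± 0.18, adjusted p = 0.612). Of 20 T and NK cell markers edgeR called 0, with 1 lower at an unadjusted p under 0.05 and 1 lower by DESeq2. The summed level of these markers was only 12.3 to 17.0 CPM in 7OFF and 15.7 to 21.6 CPM in 3OFF. At such low counts the lack of calls says little about these cells. Of 22 cholangiocyte and ductular markers edgeR also called 0, with 3 lower at an unadjusted p under 0.05 and 1 lower by DESeq2. Single members fell among 13 neutrophil markers (Il1b, -1.65 ± 0.46), 12 B and plasma cell markers (Cd22, -0.71 ± 0.21) and 23 stellate cell and myofibroblast markers (Vim, -0.68 ± 0.19). These were 7.69%, 8.33% and 4.35% of the lists, against 5.04% of all genes lower. Each of these single calls was lost without 4 or more of the 6 libraries, and Il1b was at -0.81 without 3OFF replicate 2. The neutrophil list as a whole turned on single libraries. Its median was -0.14 with all libraries and -0.79 without 7OFF replicate 3. Without 3OFF replicate 1 it was 1.07, with 3 markers called higher and 1 lower. Acta2, the actin of myofibroblasts, had 3.81, 4.64 and 4.86 CPM in the 7OFF livers and 3.53, 5.10 and 3.28 CPM in the 3OFF livers (log2 fold change 0.16 ± 0.26, adjusted p = 0.754).

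Matrix proteases and their inhibitors held more calls than collagen and fibrillar matrix genes. Of 32 collagen and fibrillar matrix genes 3 fell (9.38%, against 5.04% of all genes) and 1 rose (3.12%, against 3.02%). The median was -0.10, and lay between -0.43 and 0.05 with 1 library left out. In those fits the count of falls was as low as 1 and as high as 4. Col4a1, a basement membrane collagen that overlaps Col4a2, had 60.1, 82.7 and 99.8 CPM in the 7OFF livers and 152, 147 and 129 CPM in the 3OFF livers (log2 fold change -0.82 ± 0.18, adjusted p = 0.0129). The fibrillar collagens did not pass: Col1a1 was at -0.60 ± 0.32 and Col3a1 at -0.42 ± 0.29. Of 26 matrix proteases and inhibitors 7 fell and none rose, against 5.04% of all genes lower, with a median of -0.35. The summed level of that list was 1670 to 2037 CPM in 7OFF and 2559 to 2639.8 CPM in 3OFF. Ctss, a cathepsin of antigen-presenting cells, had 68.5, 74.8 and 88.2 CPM in the 7OFF livers and 133, 156 and 143 CPM in the 3OFF livers (log2 fold change -0.90 ± 0.17, adjusted p = 0.00687). Mmp12, the macrophage elastase, had 4.96, 6.31 and 7.93 CPM in the 7OFF livers and 22.1, 19.2 and 42.8 CPM in the 3OFF livers (log2 fold change -2.12 ± 0.59, adjusted p = 0.0378), a gap without overlap that lost its call without 5 of the 6 libraries, with -1.68 without 3OFF replicate 3. Timp4, a protease inhibitor that overlaps Syn2, was at -3.87 ± 0.73, with -4.78 without 7OFF replicate 3. The list's count was 2 without 7OFF replicate 2, 3 without 3OFF replicate 1 and 4 without 3OFF replicate 2.

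Red cell genes separated 2 of the 3OFF livers from the rest. Hba-a2, an alpha-globin gene, had 22.8, 18.8 and 24.9 CPM in the 7OFF livers and 169, 162 and 28.7 CPM in the 3OFF livers (log2 fold change -2.44 ± 0.50, adjusted p = 0.00843). The values were high in 3OFF replicates 1 and 2, while 3OFF replicate 3 lay beside the 7OFF livers. Hba-a1, Hbb-bs and Hbb-bt had the same pattern (-2.30 ± 0.52, -2.45 ± 0.53 and -2.49 ± 0.54), although they no longer passed without 7OFF replicate 2 (-2.21, -2.33 and -2.33), nor Hba-a1 without 3OFF replicate 1 (-1.88). Globin copies are near-identical, and reads with several alignments were left out, so each count holds only reads placed on that copy alone. Globin genes together took 0.00663% to 0.00945% of the counts in 7OFF, against 0.0661%, 0.0576% and 0.010% in 3OFF replicates 1, 2 and 3. Of 14 erythroid and platelet markers 5 fell and none rose, against 5.04% of all genes lower, with a median of -1.49, and the count was 2 without 7OFF replicate 2, 3 without 3OFF replicate 1 and 8 without 3OFF replicate 3. Slc4a1, the anion exchanger of red cells, had 0.175, 0.158 and 0.258 CPM in the 7OFF livers and 11, 2.13 and 0.298 CPM in the 3OFF livers (log2 fold change -4.48 ± 1.20, adjusted p = 0.0326), and its call was lost in 4 of the 6 fits with 1 library left out, at -4.42 without 7OFF replicate 1, -4.32 without 7OFF replicate 2, -4.75 without 7OFF replicate 3 and -2.64 without 3OFF replicate 1.

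Genes of cell division had negative fold changes without passing the test. All 35 mitosis genes had a negative sign, with a median of -0.99, but edgeR called 0. At an unadjusted p under 0.05 there were 16, all lower, and DESeq2 called 9 lower. Mki67, the proliferation antigen Ki-67, had 3.21, 4.26 and 8.87 CPM in the 7OFF livers and 18.4, 8.52 and 11.1 CPM in the 3OFF livers (log2 fold change -1.20 ± 0.48, adjusted p = 0.135), against a mean of 79.2 CPM in 12ON and 9.33 CPM in 12. Cdk1, the kinase that drives entry into mitosis, had 2.20, 1.6 and 1.78 CPM in the 7OFF livers and 5.13, 3.63 and 4.77 CPM in the 3OFF livers (log2 fold change -1.29 ± 0.42, adjusted p = 0.0725). The groups did not overlap for Cdk1, whereas for Mki67 the highest 7OFF liver, replicate 3, reached the lowest 3OFF liver, replicate 2. The median of 40 genes of the G1/S step and DNA replication was -0.27. None rose and 2 fell (5%, against 5.04% of all genes lower). These were Ccne1, cyclin E1 (-1.25 ± 0.35), and the origin licensing factor Cdt1 (-0.93 ± 0.26). Ccne1 lost its call without 5 of the 6 libraries and Cdt1 without each of the 6, and without 7OFF replicate 3 they were at -1.01 and -0.96. The list held 1 call without 7OFF replicate 1 and 0 without any other library.

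Ribosome genes had small negative fold changes. All 40 cytosolic ribosomal protein genes had a negative sign, with a median of -0.33. Of these, 5 fell (12.5%, against 5.04% of all genes) and none rose. Rpl32, a protein of the large subunit, had 182, 190 and 198 CPM in the 7OFF livers and 359, 301 and 229.8 CPM in the 3OFF livers (log2 fold change -0.64 ± 0.14, adjusted p = 0.0104). The 7OFF libraries lay close together, while 3OFF replicate 1 was highest and 3OFF replicate 3 lowest of its group. The count of called ribosomal proteins was 0 without 3OFF replicate 1, 2 without 3OFF replicate 2, 3 without 7OFF replicate 2 and 18 without 3OFF replicate 3, and DESeq2 called 17. Rpl32 was at -0.48 without 3OFF replicate 1. Of 38 ribosome biogenesis genes 3 fell (7.89%, against 5.04% of all genes) and none rose, with a median of -0.07. Ncl, the nucleolar protein nucleolin, had 244, 227 and 196 CPM in the 7OFF livers and 366, 361 and 302 CPM in the 3OFF livers (log2 fold change -0.63 ± 0.12, adjusted p = 0.00556), and Npm1, the nucleolar chaperone nucleophosmin, had 155, 151 and 139 CPM in the 7OFF livers and 237, 218 and 187 CPM in the 3OFF livers (log2 fold change -0.53 ± 0.11, adjusted p = 0.00825). In both the 7OFF values lay below the 3OFF values with no overlap, and small RNA genes that overlap Ncl share its reads. Without 3OFF replicate 3 the list held 7 calls. Of 20 translation factor genes edgeR called 0, with 3 lower at an unadjusted p under 0.05 and 0 by DESeq2. Of 28 nucleotide, one-carbon and polyamine genes 2 fell (7.14%, against 5.04% of all genes). They were Mthfd1l and the purine enzyme Ppat (-0.66 ± 0.14), which did not pass without 7OFF replicate 2 (-0.58).

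Single stress transcription factors fell. Of 24 immediate early genes 3 fell (12.5%, against 5.04% of all genes) and none rose, with a median of -0.40. Without 7OFF replicate 1, 5 fell. Jun, a subunit of AP-1, had 22.9, 14.7 and 16.0 CPM in the 7OFF livers and 44.2, 62.3 and 35.6 CPM in the 3OFF livers (log2 fold change -1.41 ± 0.26, adjusted p = 0.00553). Atf3, induced by many stresses, had 2.27, 1.67 and 2.91 CPM in the 7OFF livers and 7.24, 10.6 and 8.40 CPM in the 3OFF livers (log2 fold change -1.94 ± 0.38, adjusted p = 0.00709). Klf6, a zinc finger factor raised early after liver injury, had 18.3, 15.4 and 24.9 CPM in the 7OFF livers and 45.3, 37.1 and 39.1 CPM in the 3OFF livers (log2 fold change -1.05 ± 0.18, adjusted p = 0.00316). For all of them the groups did not overlap, and the 7OFF means were near those of group 12, which were 18.7, 2.72 and 19.3 CPM. Jun reads include those of the antisense gene Junos where exons overlap. Axl, a receptor tyrosine kinase for dying cells, had 51.5, 53.7 and 58.4 CPM in the 7OFF livers and 86.1, 98.5 and 92.8 CPM in the 3OFF livers (log2 fold change -0.76 ± 0.16, adjusted p = 0.00845), and Aldoa, the muscle-type aldolase of glycolysis, had 111, 92.9 and 92.5 CPM in the 7OFF livers and 155, 146 and 135 CPM in the 3OFF livers (log2 fold change -0.55 ± 0.11, adjusted p = 0.00870). Hmox1, haem oxygenase 1, had 25.1, 25.9 and 27.7 CPM in the 7OFF livers and 61.3, 56.0 and 162 CPM in the 3OFF livers (log2 fold change -1.82 ± 0.35, adjusted p = 0.00650). It stood apart in 3OFF replicate 3, and without that library the log2 fold change was -1.16. Pmaip1, the p53 target that encodes the cell death protein NOXA, had 1.19, 1.33 and 1.52 CPM in the 7OFF livers and 2.60, 4.66 and 3.12 CPM in the 3OFF livers (log2 fold change -1.35 ± 0.29, adjusted p = 0.0112).

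**Figure D4:**
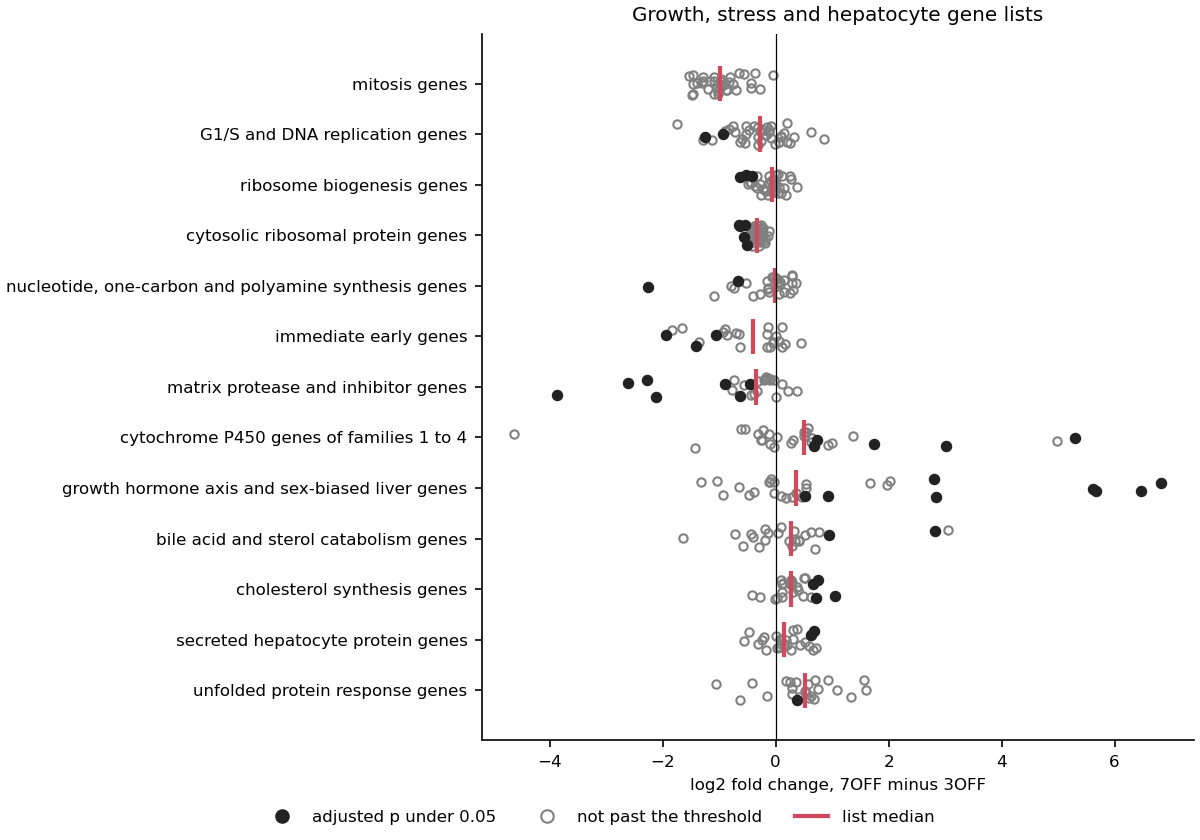
Log2 fold changes of 7OFF minus 3OFF for the tested members of 13 gene lists, with filled points past an adjusted p of 0.05, open points not past it and red bars for list medians. Mitosis genes lie left of 0 with a median of -0.99 and no filled point, and the far right points of the cytochrome P450 and growth hormone lists are genes that 7OFF replicate 1 expressed highly.

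Cytochrome P450 genes were among those higher in 7OFF. Of 29 cytochrome P450 genes, the oxidases of drugs, steroids and fatty acids, 5 rose and none fell, against 3.02% of all genes higher, with a median of 0.50. The count was 3 without 7OFF replicate 1, 3OFF replicate 1 or 3OFF replicate 2. Cyp2c40 had 94.2, 235 and 314 CPM in the 7OFF livers and 54.3, 76.4 and 61.3 CPM in the 3OFF livers (log2 fold change 1.74 ± 0.34, adjusted p = 0.00695), and Cyp2j5, an epoxygenase of arachidonic acid, had 616, 514 and 515 CPM in the 7OFF livers and 284, 363 and 336 CPM in the 3OFF livers (log2 fold change 0.74 ± 0.14, adjusted p = 0.00641). Outside that list Cyp2c67 had 194, 174 and 154 CPM in the 7OFF livers and 57.0, 66.3 and 61.8 CPM in the 3OFF livers (log2 fold change 1.5 ± 0.23, adjusted p = 0.00172) and Cyp2c69 had 63.4, 179.6 and 219 CPM in the 7OFF livers and 28.9, 48.9 and 38.3 CPM in the 3OFF livers (log2 fold change 1.99 ± 0.41, adjusted p = 0.00876). Every 7OFF liver lay above every 3OFF liver for these 4 genes, and 7OFF replicate 1 was the lowest of its group for Cyp2c40 and Cyp2c69 and the highest for Cyp2c67 and Cyp2j5. The Cyp2c copies are closely related, and reads with several alignments were left out, so each count holds only reads placed on that copy alone. Cyp2c39 went the other way, with 3.32, 4.58 and 12.6 CPM in the 7OFF livers and 151, 165 and 193 CPM in the 3OFF livers, but it did not pass (log2 fold change -4.62 ± 1.43, adjusted p = 0.0601). Cyp2u1 was at 3.01 ± 0.49, and at 2.17 without 7OFF replicate 1.

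Single genes of transport, bile acid synthesis and lipoproteins were higher too. Slc30a10, an exporter of manganese, had 63.5, 101 and 74.9 CPM in the 7OFF livers and 21.1, 27.0 and 6.48 CPM in the 3OFF livers (log2 fold change 2.13 ± 0.40, adjusted p = 0.00553), a 4.38-fold rise. Hsd3b7, an enzyme of bile acid synthesis from cholesterol, had 485, 527 and 631 CPM in the 7OFF livers and 318, 293 and 238 CPM in the 3OFF livers (log2 fold change 0.95 ± 0.19, adjusted p = 0.00703), although its exons overlap Setd1a. On the bile acid list 2 of 24 genes were higher (8.33%, against 3.02% of all genes) and none lower, with a median of 0.27. Hsd3b7 was 1 of them. The other was Slco1a1, an uptake transporter, with 1117, 552 and 181 CPM in the 7OFF livers and 49.4, 64.5 and 147 CPM in the 3OFF livers (log2 fold change 2.83 ± 0.71, adjusted p = 0.0243). That call ended without 7OFF replicate 1 (2.07) and without 3 other libraries, and its log2 fold change was 3.44 without 3OFF replicate 3. The list held 4 calls without 7OFF replicate 3 and 1 without 7OFF replicate 1, 7OFF replicate 2, 3OFF replicate 1 or 3OFF replicate 2. Apoc3, an inhibitor of lipoprotein lipase, had 1229, 1088 and 987 CPM in the 7OFF livers and 643, 617 and 809 CPM in the 3OFF livers (log2 fold change 0.67 ± 0.14, adjusted p = 0.00871). It was 1 of 2 higher of 27 secreted hepatocyte proteins (7.41%, against 3.02% of all genes), whose median was 0.16. The other, Apoa2 (0.63 ± 0.17), lost its call without 5 of the 6 libraries and was at 0.54 without 7OFF replicate 1. Alb had 47213, 70364 and 54329 CPM in the 7OFF livers and 38742, 47292 and 65533 CPM in the 3OFF livers and did not pass (log2 fold change 0.18 ± 0.22, adjusted p = 0.662). Mlxipl, the glucose-responsive factor ChREBP of the MAX network, had 275, 293 and 305 CPM in the 7OFF livers and 186, 161 and 130 CPM in the 3OFF livers (log2 fold change 0.87 ± 0.15, adjusted p = 0.00352). Hsd17b13, a lipid droplet enzyme, went down, with 432, 514 and 420.2 CPM in the 7OFF livers and 756, 677 and 678 CPM in the 3OFF livers (log2 fold change -0.63 ± 0.10, adjusted p = 0.00306). Lifr, the receptor for leukaemia inhibitory factor, had 384, 339 and 489.8 CPM in the 7OFF livers and 118, 208 and 178 CPM in the 3OFF livers (log2 fold change 1.27 ± 0.27, adjusted p = 0.0115) and was at 1.07, not past the threshold, without 3OFF replicate 1.

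The 12 largest rises under the same conditions also held genes less known in the liver. Clic3, a chloride channel family protein, had 9.08, 39.0 and 27.3 CPM in the 7OFF livers and 3.67, 4.24 and 4.12 CPM in the 3OFF livers (log2 fold change 2.65 ± 0.43, adjusted p = 0.00284). Paxx, a factor of DNA end joining, had 58.3, 137 and 122 CPM in the 7OFF livers and 28.1, 37.3 and 26.3 CPM in the 3OFF livers (log2 fold change 1.79 ± 0.28, adjusted p = 0.00224). Clic3 lies within the span of Paxx on the other strand. Their exons do not overlap, but reads were counted without strand, and whether unspliced Paxx reads add to Clic3 was not tested. Mapk15, an atypical MAP kinase, had 7.48, 5.68 and 2.39 CPM in the 7OFF livers and 0.933, 1.48 and 1.19 CPM in the 3OFF livers (log2 fold change 2.10 ± 0.37, adjusted p = 0.00396). Ddc, the decarboxylase of aromatic amino acids, had 48.1, 73.3 and 71.9 CPM in the 7OFF livers and 29.7, 24.6 and 19.7 CPM in the 3OFF livers (log2 fold change 1.39 ± 0.20, adjusted p = 0.00139). The groups did not overlap in any of them, but the 7OFF livers varied among themselves, and 7OFF replicate 1 was lowest for Clic3, Paxx and Ddc and highest for Mapk15. Slc22a28, Tspan33 and Klhdc8a rose with log2 fold changes of 1.36 ± 0.29, 1.23 ± 0.21 and 1.20 ± 0.24.

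Cholesterol synthesis genes mostly had positive fold changes. Of 25 genes 4 rose and none fell, against 3.02% of all genes higher, 22 had a positive sign and the median was 0.28. Sc5d, the sterol-C5-desaturase, had 265, 265 and 347 CPM in the 7OFF livers and 119, 140 and 166 CPM in the 3OFF livers (log2 fold change 1.05 ± 0.23, adjusted p = 0.0128), and Ebp, the sterol isomerase before it, had 149, 149.9 and 162 CPM in the 7OFF livers and 78.1, 109.5 and 105 CPM in the 3OFF livers (log2 fold change 0.66 ± 0.14, adjusted p = 0.0129). The 3OFF replicate 1 liver had the lowest value of both. Without it the list held 0 calls, and Sc5d and Ebp were at 0.94 and 0.52. Of 24 unfolded protein response genes 20 had a positive sign, with a median of 0.53, and 1 passed (4.17%, against 3.02% of all genes higher). It was Atf4, the factor of the integrated stress response (log2 fold change 0.38 ± 0.10, adjusted p = 0.0278), which lost its call without 5 of the 6 libraries, while DESeq2 called 5 genes of that list higher. Hspa5, the chaperone BiP, had 665, 1402 and 744 CPM in the 7OFF livers and 631, 632 and 406 CPM in the 3OFF livers and did not pass (log2 fold change 0.75 ± 0.35, adjusted p = 0.199).

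Several growth hormone and sex-biased genes were highest in a single liver, 7OFF replicate 1. Of 29 genes 8 rose and none fell, against 3.02% of all genes higher, with a median of 0.36, and the count was 2 without 3OFF replicate 1, 4 without 3OFF replicate 2 or 3OFF replicate 3 and 5 without 7OFF replicate 1. Mup7, a major urinary protein, had 8853, 429 and 272 CPM in the 7OFF livers and 33.0, 59.4 and 15.6 CPM in the 3OFF livers (log2 fold change 6.47 ± 1.41, adjusted p = 0.0125). The 7OFF replicate 1 liver lay far above all others, and without it the log2 fold change was 3.28, while the call was lost without 3OFF replicate 1. Across the Mup family 19 of 21 tested genes were called higher, none of them with a call and a fold that held in all 6 fits with 1 library left out. These 19 lay between 105 and 8853 CPM in 7OFF replicate 1. The copies are near-identical, so their counts are not independent. Elovl3, a fatty acid elongase that is higher in males, had 37.3, 2.77 and 0.352 CPM in the 7OFF livers and 0.0608, 0.171 and 0.108 CPM in the 3OFF livers (log2 fold change 6.83 ± 1.36, adjusted p = 0.00773), with 3.74 without 7OFF replicate 1. Hsd3b5 was at 5.67 ± 1.42 with all libraries and 0.85 without it, and Cyp4a12b at 5.31 ± 1.55 and -0.06. Stat5a, a transcription factor of growth hormone signalling whose exons overlap Stat3, was the member whose call and fold both held in every fit with 1 library left out, with 32.6, 50.4 and 51.6 CPM in the 7OFF livers and 22.0, 27.3 and 21.4 CPM in the 3OFF livers (log2 fold change 0.93 ± 0.18, adjusted p = 0.00742). Xist was low in 7OFF replicate 1, 7OFF replicate 2, 3OFF replicate 1 and 3OFF replicate 2. Fits with a term for high or low Xist, and on low-Xist libraries alone, are described below for all genes. They are not given for this list.

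Clock genes split the 7OFF livers. The circadian clock is a loop in which CLOCK or NPAS2 with ARNTL turns on the Per and Cry repressors and output factors such as Dbp and Tef. Clock had 48.4, 50.9 and 54.4 CPM in the 7OFF livers and 28.4, 27.9 and 18.3 CPM in the 3OFF livers (log2 fold change 1.04 ± 0.14, adjusted p = 0.000824), a 2.06-fold rise with tight groups. Npas2 had 0.279, 9.29 and 7.79 CPM in the 7OFF livers and 0.0608, 0.0951 and 0.0813 CPM in the 3OFF livers (log2 fold change 6.15 ± 1.02, adjusted p = 0.00312). Its level was far higher in 7OFF replicates 2 and 3 than in 7OFF replicate 1, which still lay above all 3OFF livers. Arntl, the partner of both, had 2.97, 35.0 and 33.9 CPM in the 7OFF livers and 9.71, 4.40 and 1.52 CPM in the 3OFF livers (log2 fold change 2.19 ± 0.65, adjusted p = 0.0513). There 7OFF replicates 2 and 3 were high, and 7OFF replicate 1 lay within the 3OFF range. Per1 had 50.3, 2.98 and 8.77 CPM in the 7OFF livers and 66.8, 52.8 and 73.3 CPM in the 3OFF livers, and Dbp had 115, 2.62 and 3.50 CPM in the 7OFF livers and 70.1, 102 and 189 CPM in the 3OFF livers. In both, 7OFF replicates 2 and 3 were low and 7OFF replicate 1 lay close to or among the 3OFF livers. Per3, Tef, Usp2 and Ciart, drawn in the plot of clock genes, were split in the same way.

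Of 21 clock genes 4 rose (19%, against 3.02% of all genes) and 1 fell (4.76%, against 5.04%) with all libraries. Without 7OFF replicate 1, 5 rose and 12 fell. Cry1, a repressor of the loop, had 11.5, 31.6 and 20.8 CPM in the 7OFF livers and 9.49, 8.62 and 8.84 CPM in the 3OFF livers (log2 fold change 1.25 ± 0.31, adjusted p = 0.0224), and Nfil3, a repressor of the output genes, had 18.6, 55.4 and 64.3 CPM in the 7OFF livers and 21.2, 17.4 and 13.5 CPM in the 3OFF livers (log2 fold change 1.41 ± 0.39, adjusted p = 0.0366). Without 7OFF replicate 2 they were at 0.85 and 1.26 and did not pass, and they lost their calls without 3 and 4 further libraries. The list held 2 rises without 7OFF replicate 2, 3OFF replicate 2 or 3OFF replicate 3. Without 7OFF replicate 1, Arntl was at 2.71, Per1 at -3.45, Per3 at -3.87, Dbp at -5.30 and Ciart at -4.96. The same liver held the high values of Mup7, Elovl3, Hsd3b5 and Cyp4a12b. The hour of sampling is not given, so time of day and the days between the groups, whether counted from the injury or from the end of MycER activity, cannot be told apart for these genes.

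**Figure D5:**
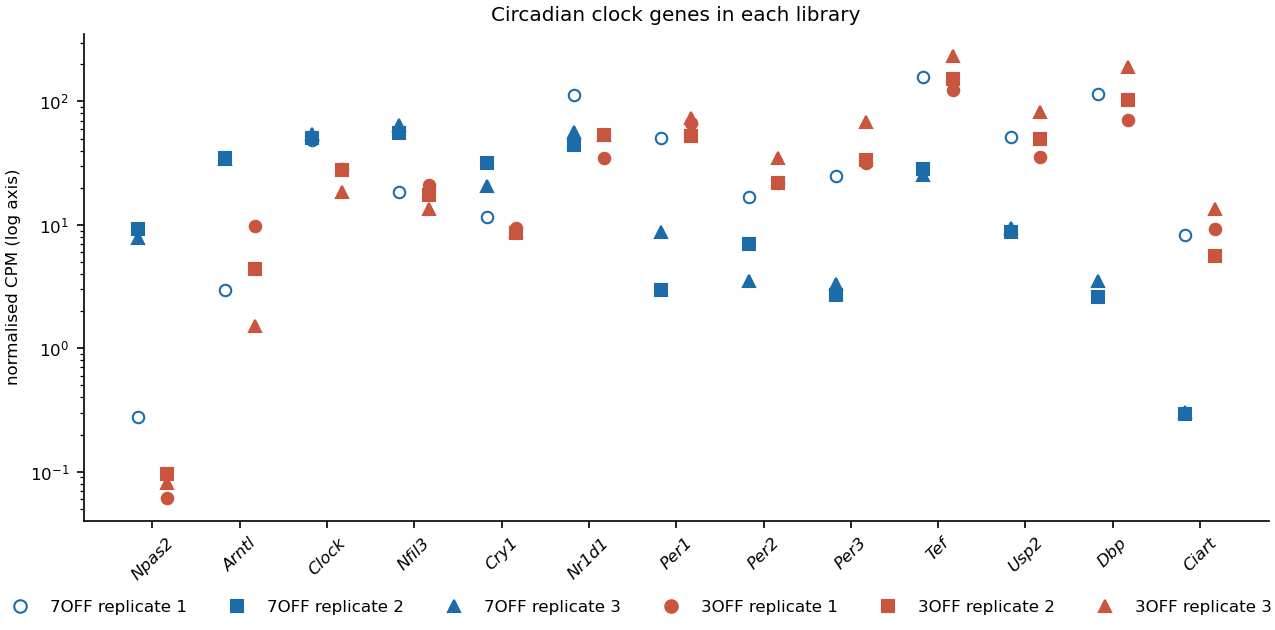
Normalised CPM (log axis) of 13 circadian clock genes in each 7OFF library (blue) and 3OFF library (red), with open circles for 7OFF replicate 1. That library lies with the 3OFF libraries for Arntl, Per1, Tef, Usp2, Dbp and Ciart, while Clock separates the groups without overlap.

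The remaining lists held few calls each, although some shares lay above those of all genes. Over all tested genes 3.02% were higher and 5.04% lower. The largest shares here were 13.6% lower for glycolysis, 12.5% lower for p53 targets and CDK inhibitors and 10% higher for gluconeogenesis and amino acid breakdown. With 1 library left out these counts were as low as 1, 1 and 0. In the counts of higher and lower genes, hepatocyte transcription factors had 1 and 0 of 20, complement and coagulation genes 0 and 0 of 24, acute phase genes 0 and 1 of 24, perivenous hepatocyte genes 1 and 0 of 24 and periportal genes 0 and 1 of 24. At an unadjusted p under 0.05 complement and coagulation had 3 higher, and DESeq2 called 2 higher. Conjugation enzymes had 1 and 2 of 27, NRF2 targets 1 and 2 of 23, fatty acid synthesis 2 and 0 of 26, fatty acid oxidation 1 and 1 of 26, gluconeogenesis and amino acid breakdown 3 and 0 of 30 and glycolysis 1 and 3 of 22. Fabp1, the fatty acid binding protein of hepatocytes, had 3823, 2371 and 1825 CPM in the 7OFF livers and 648, 1344 and 1260.1 CPM in the 3OFF livers (log2 fold change 1.3 ± 0.34, adjusted p = 0.0306), but was at 0.95 and did not pass without 7OFF replicate 1 or 3 other libraries. Nuclear respiratory chain genes had 1 and 0 of 34, of which 29 were positive, and mitochondrially encoded genes 0 and 1 of 13. Cytosolic chaperones had 1 and 0 of 20, p53 targets and CDK inhibitors 0 and 3 of 24, YAP, Notch and growth signal genes 1 and 2 of 25, iron handling genes 1 and 1 of 19 and MYC and MAX network genes 1 and 1 of 13. Of 6 markers of mesothelium and neighbouring organs edgeR called 0, with 2 lower at an unadjusted p under 0.05 and 0 by DESeq2. Of 10 poly-A tail and nuclear RNA markers it called 0, with 2 higher at an unadjusted p under 0.05 and 0 by DESeq2.

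Some called members of these lists had groups without overlap, although each call was lost when certain single libraries were left out. Osgin1, a growth inhibitor induced through NRF2, had 294, 449.9 and 464 CPM in the 7OFF livers and 81.2, 162 and 194 CPM in the 3OFF livers (log2 fold change 1.47 ± 0.38, adjusted p = 0.0277), with 1.38 without 7OFF replicate 2, 1.35 without 7OFF replicate 3, 1.18 without 3OFF replicate 1 and 1.55 without 3OFF replicate 2. Cbs, cystathionine beta-synthase of the pathway from methionine to cysteine, had 517, 740.4 and 789.7 CPM in the 7OFF livers and 337, 396 and 371 CPM in the 3OFF livers (log2 fold change 0.89 ± 0.20, adjusted p = 0.0156), with 0.83 without 7OFF replicate 2 and 0.83 without 3OFF replicate 1. In both genes each 7OFF liver lay above each 3OFF liver. Ppargc1a, the coactivator PGC-1alpha of mitochondrial and gluconeogenic genes, had 9.15, 7.31 and 7.95 CPM in the 7OFF livers and 18.8, 16.5 and 17.8 CPM in the 3OFF livers (log2 fold change -1.12 ± 0.24, adjusted p = 0.00998), with -1.05 without 7OFF replicate 2. Btg2, an antiproliferative target of p53, had 10.5, 14.7 and 19.3 CPM in the 7OFF livers and 39.2, 52.6 and 24.6 CPM in the 3OFF livers (log2 fold change -1.38 ± 0.31, adjusted p = 0.0133), with -1.38 without 7OFF replicate 2 and -1.10 without 3OFF replicate 2. For both, each 7OFF liver lay below each 3OFF liver.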

How the data were processed

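The authors deposited raw read counts per gene for 18 libraries of poly-A RNA, 1 per mouse, sequenced as single reads of 50 nt. Trim Galore, TopHat2 and the mouse build mm10 are named in the submitters' processing notes. Per the file headers, featureCounts 1.5.0-p1 counted exons of Ensembl 82 genes without strand, with at least 10 overlapping bases, for every gene a read overlapped. Reads with several alignments were left out.

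edgeR 4.0.16 (R 4.3.3) fitted all libraries together, by quasi-likelihood, after TMM scaling and filterByExpr at a minimum count of 10. The fit had 12 residual degrees of freedom, and the biological coefficient of variation was 0.202. The contrast was 7OFF minus 3OFF, two-sided, over 17789 of 34937 genes, of which 34599 had a symbol. CPM are TMM-normalised, and a standard error is the log2 fold change over the root of F. Replicate pairs within 7OFF or 3OFF differed with a chi-square of 62.8 or more per gene, far above sampling noise. It was 196 to 293 in 7OFF and 62.8 to 128 in 3OFF. The p-values rest on the spread between mice pooled over all 6 groups, not on that of 7OFF and 3OFF alone. With the 6 libraries of 7OFF and 3OFF alone, 35 genes were higher and 218 lower.

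The members, the 48 lists (1165 genes, 1136 of them tested) and the tests were chosen with earlier results of these data known. The rule for named genes took Myc, Esr1 and Xist, the 10 smallest p, and the 12 highest and 12 lowest fold changes with at least 4 CPM, no overlap, and a call and fold (within 1.5 times) that held without each library. It allowed up to 5 such members per list and direction or, where there was none, the 2 with the smallest p, and not all of these are described: some genes are not reported here. Other members were named after their values were seen. The fit was tested on simulated counts of 7OFF and 3OFF over 17648 genes. It recovered 24% of 50 genes altered 1.5-fold, 78% at 2-fold, 96% at 4-fold and 98% at 8-fold, and made 2 false calls. The number of false calls when single libraries stand apart, as in 7OFF, was not tested. Another scaling, filter or threshold, DESeq2 1.42.0, covariates, fewer libraries and a replicate block were tried as alternatives.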

Additional observations from a re-analysis of the deposited data

How the results depend on the processing

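With all libraries 538 genes were higher and 896 lower in 7OFF. Leaving out 1 library gave 184 to 603 higher and 397 to 911 lower. Total counts alone gave 192 higher, no filter 337 higher, DESeq2 947 higher, and low-Xist libraries alone 310 higher. Smaller counts came from the mitochondrial share as a term (181 and 520), the 6 libraries alone (35 and 218), a test against a 1.5-fold change (10 and 50) and an adjusted p under 0.01 (100 and 309). RLE or upper-quartile scaling, a mean of at least 1 CPM and a term for Xist stayed within 1.5 times in both directions. Opposite-way shares with 12ON against 12 lay between 61.0% and 82.4% of the higher genes and between 49.9% and 59.2% of the lower when 1 library was left out. The groups share replicate numbers, but same-numbered libraries did not deviate together (r = -0.0906, 0.0483 and -0.00688), and not every library correlated best with its own number. A replicate block in the 6 libraries gave 0 higher and 2 lower by edgeR, with 1140 and 1698 at an unadjusted p under 0.05. Without the block edgeR gave 35 and 218 in the same 6 libraries. DESeq2 without a block gave 947 and 1261, but in all 18 libraries. The block over all 18 libraries, chosen after seeing the data, gave 595 and 944. Signs turned for 4 named genes, none past the threshold in the setting where it turned. Xist (-0.11 with all libraries) was at 0.36 and 0.18 with the replicate block in 6 and in 18 libraries, 0.61 and 8.14 with the Xist and mitochondrial terms and 1.12 in low-Xist libraries, and between -6.43 and 7.49 with 1 library left out. Rn7sk lay between -0.36 and 2.18 and Cyp4a12b between -0.058 and 6.27 with 1 library left out, and Acta2 at -0.026 in low-Xist libraries. The causes were not tested. Depth was 35.1 to 56.0 M counts in these 6 libraries, and with a recovery of 24% at 1.5-fold in simulated data, many changes of that size would be missed.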

Other observations

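The 7SL RNA genes, the RNA part of the signal recognition particle, had high values in a single library. The copies Rn7s1, Rn7s2 and Rn7s6 lay at 4.33 to 14.0, 28.8 to 94.7 and 1.24 to 5.37 CPM in 7OFF replicates 1, 2 and 3. In 3OFF replicates 1, 2 and 3 they lay at 2.07 to 7.26, 1.35 to 5.02 and 2.33 to 9.19 CPM. All of these copies passed the test as higher in 7OFF, with log2 fold changes of 2.41 to 2.59, and none held its call and fold when 1 library was left out in turn. They were named after their values were seen. 7SL RNA carries no poly-A tail, and the part of library preparation in these values was not tested.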
